A study of Mus musculus with 24 samples.

Results

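The response of pancreatic islets of old mice to partial pancreatectomy (PPTx, an operation that takes out part of the organ) was read by bulk RNA-seq 2 days after the operation. Sample titles and ages placed 4 libraries in the old day 2 group and 4 in the old control group, which is 8 of the 24 libraries of the series. The other 16 libraries are the young control and young day 2 islets (4 each) and the islets of both ages at days 7 and 14 (2 each). The series asked how islet gene expression changes after PPTx and whether age alters that change. All mice were male C57BL/6J, an inbred strain used here without any engineered allele. Both groups described here were 52 weeks old, and the young groups were 8 weeks old. In the day 2 group 50% of the pancreas, on the splenic side, had been removed, whereas the controls had no operation at all. There was no sham group, so the loss of tissue and the surgery itself cannot be told apart. Islets were released with collagenase, picked by hand and pooled from 1 or 2 mice per library, and the p-values measure the spread between such libraries.

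Islets are clusters of hormone cells scattered through the exocrine pancreas. Most of their cells are β-cells, which sense glucose through its uptake and breakdown and release insulin. In young rodents β-cells divide more often after part of the pancreas is lost, and this capacity falls with age. The Reg genes encode small secreted C-type lectins that are made by acinar cells, gut epithelium and injured islets, and they are known as targets of inflammatory cytokines. Cytokines of the interleukin-6 type bind receptors that contain gp130. Janus kinases (Jak) on these receptors then phosphorylate STAT3, which enters the nucleus and switches on genes such as Socs3, whose product in turn blocks the receptor. In whole-islet RNA, fewer cells of one type and less RNA per cell cannot be told apart.

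The 8 libraries held 6883468 to 9256957 counts in controls and 8865989 to 11349494 at day 2 (two-sided exact permutation test, p = 0.143; the smallest p that 4 against 4 libraries allow is 0.0286). Levels are given as CPM, reads scaled to library size with TMM over all 24 libraries, and 1 count stood for 0.0881 to 0.145 CPM before TMM. Genes took 23.2% to 53.4% of the mapped reads in controls and 33.6% to 54.4% at day 2 (same exact test, p = 0.629), with the lowest share in control replicate 4. Replicates 1 and 2 of both groups carried the first of the run labels and replicates 3 and 4 the second, so this label was a term of the test. The share of mapped reads in genes was 51.9% to 54.4% in libraries of the first label and 23.2% to 41.3% in those of the second. The β-cell hormone transcript Ins2 was at 83871 to 115530.0 CPM in controls and 72811 to 88912 CPM at day 2, which goes with the islet label.

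At day 2, 53 of 14077 rows changed (0.377% of those tested; edgeR quasi-likelihood test with the run label, adjusted p below 0.05). Of these 34 rose (0.242%) and 19 fell (0.135%). The Reg genes Reg3b, Reg3g, Reg3a and Reg2 had by far the largest fold changes. Among the other genes that rose were Socs3, Stat3, Bcl3 and the row that joins Insl3 and Jak3, enzymes of fatty acid use and amino acid metabolism, and genes of secreted or signalling proteins. The genes that fell included the glucose transporter Slc2a2, the cation channel Trpm5 and the GABA-forming enzyme Gad1. Most changes were small: 12 of the genes that rose and 4 of those that fell reached 2-fold. The median log2 fold change was 0.84 over the 34 rows that rose, -0.65 over the 19 that fell, and -0.02 over all rows tested. The day 2 and control libraries did not overlap for 32 of the 34 rows that rose and 15 of the 19 that fell. Over all rows, day 2 lay above in 2.35% and below in 1.17%. The called rows were chosen on these same values, so their larger share is a description.

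The number of calls depended on the run label and on single libraries. Without the run label 3 rows were called (0.0213%; Rgs4, Socs3 and Insl3+Jak3), and with the replicate number as a block 78 (0.554%; 43 higher, 0.305%, and 35 lower, 0.249%), which included 50 of the 53 but not Rsad2 (adjusted p = 0.054), Slc25a5 (0.0655) or Frmd4b (0.0625). Within the first run label alone 32 rows were called, and within the second 0, where 401 rows had an unadjusted p below 0.05 (2 libraries per group in each). All 53 fold changes had the same sign in both run labels, which is a description since both entered the fit. Leaving out 1 library kept 12, 12, 22 and 34 of the 53 calls for control replicates 1 to 4, and 11, 9, 12 and 26 for day 2 replicates 1 to 4. Called in every one of these 8 fits were 9 rows: Reg2, Reg3a, Reg3b, Reg3g, Socs3, Insl3+Jak3, Rgs4, Serpina10 and Car8. The other 44 lost their call in at least 1 of them, and only 11 of the 53 were called in at least 4. In none of the 8 fits were 11 rows called: Naprt1, Plin2, Ccl7, Ctgf, Tnr, Man1a, Slc25a5, Tbc1d22a, Frmd4b, Acvr1c+Gm13544 and 2010111I01Rik+Gm16907. Among those called in only 1 of the 8 were Acaa2, Gatm, Nrtn, Bcl3, Slc2a2, F2r, Dpp10, Ttr and Rsad2.

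**Figure D1:**
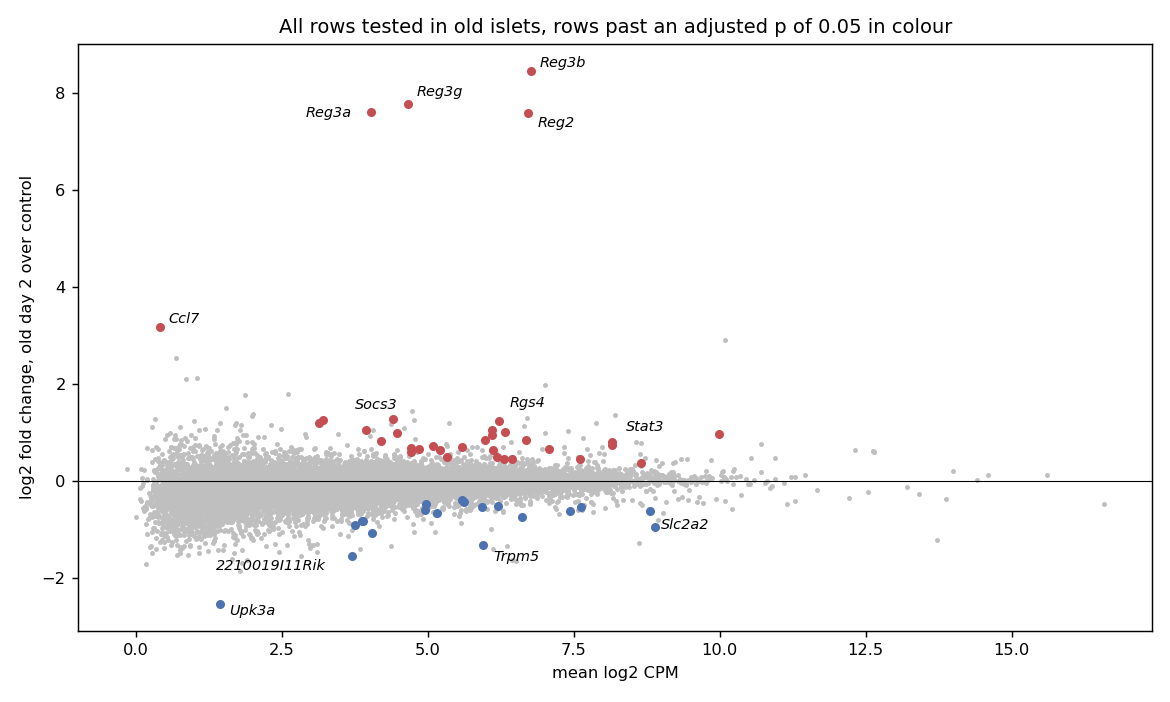
Each point is 1 of the 14077 rows tested, with its mean log2 CPM on the x axis and its log2 fold change at day 2 over control in old islets on the y axis. Coloured points are the 34 rows that rose (red) and the 19 that fell (blue); 4 Reg genes lie between 7.58 and 8.46, and all other called rows except Ccl7 (3.19) and Upk3a (-2.53) lie within 2 of zero.

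Reg genes that were barely present in control islets became readily detected at day 2. Of the 7 members listed, 5 passed the filter on low counts, 4 rose and none fell, where 0.242% of all rows rose. A gene near zero in one group passes that filter only through the other. Reg3b, a secreted lectin that binds bacteria, was at 0.123, 0, 0.397 and 1.77 CPM in control replicates 1 to 4 and at 21.9, 49.01, 197 and 536 CPM in day 2 replicates 1 to 4. Every day 2 library lay above every control, and the second run label held the highest values of both groups. The control values rest on 1, 0, 4 and 15 reads and the day 2 values on 204, 436, 2450 and 5000 reads. Reg3b rose (log2 fold change 8.46, SE 0.644, adjusted p = 0.000756), and the size of the fitted fold depends on the few control reads.

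Reg2, which has been described as a growth factor for β-cells, was at 0.613, 0.711, 1.19 and 1.30 CPM in controls and 17.6, 39.7, 156 and 564 CPM at day 2 (log2 fold change 7.58, SE 0.721, adjusted p = 0.00305). Reg3a was at 0, 0, 0.397 and 0.118 CPM in controls, from 0, 0, 4 and 1 reads, and 5.25, 5.73, 32.8 and 74.1 CPM at day 2 (log2 fold change 7.61, SE 0.526, adjusted p = 0.00041). For Reg3g, whose product kills Gram-positive bacteria in the gut, the values were 0.123, 0, 0.397 and 0.236 CPM and 1.5, 14.2, 54.02 and 115 CPM (log2 fold change 7.78, SE 0.901, adjusted p = 0.0103). In each of the 3 genes the groups did not overlap, and the day 2 libraries spread over more than 10 times in level, with replicate 4 the highest and replicate 1 the lowest. Within the first run label the log2 fold changes were 5.38, 8.51 and 6.57, and within the second 8.14, 7.54 and 7.94. Without the run label the adjusted p was 0.151 for Reg2, 0.151 for Reg3a, 0.151 for Reg3b and 0.213 for Reg3g.

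The remaining members were less clear. Reg1, the pancreatic stone protein of acinar cells, was at 61.2, 17.5, 23.9 and 29.2 CPM in controls and 25.7, 62.4, 192 and 549 CPM at day 2. These ranges overlapped, and the gene was not called (log2 fold change 1.99, SE 0.83, adjusted p = 0.4). Its log2 fold change was 0.12 within the first run label and 3.77 within the second. Reg3d did not pass the filter in these 8 libraries; it was at 0.491, 0, 0.695 and 0.591 CPM in controls and 1.07, 1.24, 6.91 and 28.6 CPM at day 2, with all day 2 libraries above the controls. Reg4 had 1, 2, 2 and 8 reads in controls and 0, 5, 1 and 2 at day 2, which is too few to compare. On build mm9, 6 of these genes lie together on chromosome 6, from Reg3b at 78320879 to the end of Reg3g at 78418868, while Reg4 lies on chromosome 3. The members are similar in sequence, so how reads were divided between them is uncertain.

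Among the day 2 libraries the summed acinar level had the same order as Reg1, Reg2, Reg3a, Reg3b, Reg3d and Reg3g; among the controls it had the order of Reg1 but not of Reg3b. The summed level of the acinar markers, enzymes such as amylases and trypsins, was 18494, 2488, 3866 and 6064 CPM in control replicates 1 to 4 and 2814, 5771, 12945 and 53596 CPM in day 2 replicates 1 to 4 (two-sided exact permutation test, p = 0.571). Of the 28 acinar markers tested none was called, and their median log2 fold change was 0.74, with -1.20 in the first run label and 2.47 in the second. Control replicate 1 held more acinar RNA than 3 of the 4 day 2 libraries and had 1 read of Reg3b.

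Per 1000 CPM of acinar markers, a ratio computed after the values had been seen and given without a test, Reg3b stood at 0.00663, 0, 0.103 and 0.292 CPM in controls and 7.77, 8.49, 15.2 and 10 CPM at day 2. The same ratio was 0.0332, 0.286, 0.308 and 0.214 and 6.25, 6.88, 12.04 and 10.5 for Reg2, and 3.31, 7.03, 6.19 and 4.81 and 9.14, 10.8, 14.8 and 10.2 for Reg1. For these genes every day 2 ratio was above every control ratio, Reg1 included. With the acinar markers left out before scaling, 57 rows were called, 36 higher and 21 lower, among them all 53. Only the marker rows were taken out and the other rows kept their counts, so this fit cannot show where their reads came from. Whether the Reg transcripts came from acinar cells or from islet cells was not tested.

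**Figure D2:**
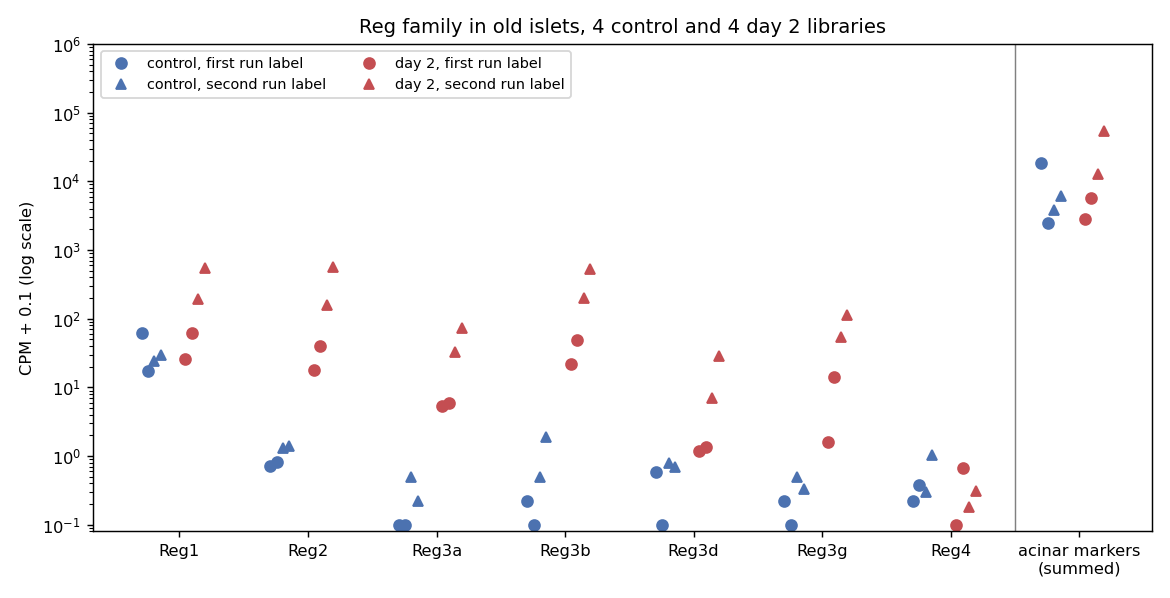
CPM plus 0.1 on a log axis for the 7 Reg genes and the summed acinar markers, 1 point per library (circles, first run label; triangles, second; blue, control; red, day 2). Reg2, Reg3a, Reg3b, Reg3d and Reg3g have all day 2 points above all control points, whereas Reg1, Reg4 and the acinar sum overlap.

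Among genes of the gp130, Jak and STAT3 pathway and the acute phase, 4 of 34 rows tested rose and none fell, where 0.242% of all rows rose. The list was written with earlier results of these data known, and the 4 rows hold genes fixed for naming, so the count is a description. Of the 34 rows, 20 were above zero, where 46.8% of all rows were. The median of the list was 0.15 (0.16 and 0.03 in the run labels), beside -0.02 over all rows. Socs3 (mm9 chromosome 11, 117827393 to 117831361) was at 9.20, 8.53, 10.1 and 8.74 CPM in controls and 20.4, 18.3, 21.3 and 17.9 CPM at day 2. No value of one group came near the other, and the rise was 2.07-fold (log2 fold change 1.05, SE 0.113, adjusted p = 0.0066). It was called without the run label too (adjusted p = 0.0372).

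Stat3 itself rose from 189, 257, 195 and 154 CPM to 377, 413, 318 and 268 CPM (log2 fold change 0.75, SE 0.103, adjusted p = 0.0268). Its groups were separate but close, with control replicate 2 just below day 2 replicate 4. This call was lost without control replicate 1 (adjusted p = 0.0521) and without day 2 replicates 1, 2 or 3 (0.0916, 0.128 and 0.11). Bcl3, an IκB-like nuclear protein, was at 6.01, 3.98, 3.77 and 5.67 CPM and 13.8, 12.8, 9.97 and 12.01 CPM (log2 fold change 1.27, SE 0.212, adjusted p = 0.0439). Leaving out any library other than control replicate 4 took its adjusted p to between 0.0716 and 0.175.

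The row that joins Insl3, a peptide hormone, and Jak3, a kinase of lymphoid cytokine receptors, was at 12.8, 10.9, 11.02 and 10.8 CPM in controls and 31.2, 35.4, 27.01 and 21.4 CPM at day 2 (log2 fold change 1.28, SE 0.122, adjusted p = 0.00305). These genes overlap, and the reads cannot be assigned to either of them. Cebpd, a transcription factor of the acute phase, is joined to 2310008H04Rik, and that row was not called: it was at 26.1, 37.1, 23.5 and 22.2 CPM and 66.98, 51.5, 44.2 and 30.3 CPM (log2 fold change 0.77, SE 0.147, adjusted p = 0.0751).

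STAT factors bind sites of the form TTCNNNGAA, so the 250 bases before each gene's start were searched for that motif, which reads the same on both strands. Of the 34 rows that rose, 29 genes had a promoter in the RefSeq table (GRCm38.p6), and 3 of these (10.3%) held the motif. This count is close to the share over all genes tested, 7.36% (881 of 11965), and over all promoters of the table, 7.02%. Among genes that fell it was 0 of 18. The 3 matches are shown with 40 bases on each side and the motif in capitals. Reg3b and Socs3 are among the 9 rows called in all 8 fits that left out a library. The matches are at -129, -154 and -210 from the start of Reg3b, Socs3 and Aldh9a1. The stretches shown lie on chr6:78370716-78370804 (plus strand), chr11:117969472-117969560 (minus strand) and chr1:167349741-167349829 (plus strand).
Reg3b: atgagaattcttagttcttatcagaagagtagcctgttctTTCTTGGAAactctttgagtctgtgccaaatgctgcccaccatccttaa
Socs3: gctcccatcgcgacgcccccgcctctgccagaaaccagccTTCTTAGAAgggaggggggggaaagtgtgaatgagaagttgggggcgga
Aldh9a1: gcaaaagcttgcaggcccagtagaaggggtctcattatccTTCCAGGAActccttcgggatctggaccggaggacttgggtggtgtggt
A match describes these letters only, and no binding was measured.

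Other inflammatory lists held few calls, where 0.242% of all rows rose and 0.135% fell. In the NF-κB and chemokine list, 1 of 18 rows rose. This was Ccl7, a chemokine that draws monocytes, at 0.245, 0.142, 0.198 and 0.118 CPM in controls, from 2, 1, 2 and 1 reads, and 1.18, 1.46, 2.81 and 1.61 CPM at day 2, from 11, 13, 35 and 15 reads (log2 fold change 3.19, SE 0.481, adjusted p = 0.0313). Its groups did not overlap, the fitted fold rests on few reads, and the call was lost in each of the 8 fits that left out a library. Of 21 complement and coagulation genes, Serpina10 rose and F2r fell. Serpina10, an inhibitor of clotting factor X, went from 60.6, 49.2, 48.4 and 39.1 CPM to 124, 136, 83.5 and 74.1 CPM (log2 fold change 1.01, SE 0.104, adjusted p = 0.00495), with all day 2 libraries above all controls. F2r, the thrombin receptor, went from 18.8, 17.1, 15.5 and 18.8 CPM to 10.1, 11.1, 10.1 and 9.54 CPM (log2 fold change -0.82, SE 0.13, adjusted p = 0.0382).

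Among 27 interferon response genes none rose, and Rsad2, an antiviral enzyme, fell from 23.7, 19.05, 13.99 and 9.69 CPM to 10.2, 11.7, 6.67 and 7.51 CPM (log2 fold change -0.89, SE 0.15, adjusted p = 0.0439); the groups overlapped, each run label was lower at day 2 within itself, and the call was lost under the replicate block (adjusted p = 0.054). Of 17 glucocorticoid targets, only Glul rose (0.64, adjusted p = 0.0319; 50.8 ± 5.31 CPM unoperated and 81.2 ± 12.4 CPM 2 days after PPTx, SD, n = 4 each). Glul makes glutamine. The list medians were 0.23 for NF-κB, 0.12 for complement, -0.13 for interferon and 0.13 for glucocorticoid targets, beside -0.02 over all rows. Of all rows tested, 0.242% rose and 0.135% fell. Summed leukocyte markers were at 787 to 1203 CPM in controls and 696 to 966 CPM at day 2 (exact permutation test, p = 0.286), and none of 29 was called.

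Outside the Reg genes the smallest adjusted p was that of Rgs4 (mm9 chromosome 1, 171671608 to 171677773), which shuts down signals from G protein-coupled receptors. It was at 43.6, 42.2, 44.8 and 36.04 CPM in controls and 114, 91.4, 99.9 and 97.5 CPM at day 2, a rise of 2.36-fold (log2 fold change 1.24, SE 0.0824, adjusted p = 0.00041). The 4 values within each group differed far less than the groups did, and the log2 fold change was 1.23 in the first run label and 1.25 in the second. Car8, a protein related to carbonic anhydrases that binds the inositol trisphosphate receptor, rose from 53.9, 48.04, 38.6 and 28.1 CPM to 101, 93.2, 62.6 and 58.5 CPM (log2 fold change 0.86, SE 0.0806, adjusted p = 0.00305). Its groups were close, since day 2 libraries of the second run label lay just above the highest controls.

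Several further genes of secreted and signalling proteins rose. Neurturin (Nrtn), a ligand of the GDNF family, was at 10.2 to 14.8 CPM in controls and 19.6 to 41.9 CPM at day 2 (0.99, adjusted p = 0.0382 on the log2 scale). Enpp2, which encodes autotaxin, the enzyme that forms lysophosphatidic acid, was at 170.0 to 219.7 CPM and 241 to 472 CPM (0.81, adjusted p = 0.0382). The joined row of Ang and Rnase4, secreted ribonucleases, was at 456 to 769.7 CPM and 976 to 1700.5 CPM (0.97, adjusted p = 0.0273). None of these groups overlapped. The epithelial transcription factor Elf3 went up by 0.73 (adjusted p = 0.0134) on the log2 scale and the calcium channel subunit Cacnb3 by 0.49 (adjusted p = 0.0307). Rises under 2-fold were also called for the centrosomal protein Tacc2 (0.85), the adhesion protein neurofascin (Nfasc, 0.46), the heparan sulfate enzyme Hs6st1 (0.50), the lysosomal sulfatase Galns (0.61), the Golgi mannosidase Man1a (0.47), and Pgbd5 (0.71), Fam159b (0.84), Ttc9 (0.66) and Tmem176a (0.46); for Tmem176a the groups overlapped.

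Several genes of fatty acid use rose at day 2. In the list of fatty acid oxidation and PPAR targets 3 of 30 rose and none fell, 25 of the 30 had a fold change above zero, and the median was 0.19 (0.21 and 0.22 in the run labels). Over all rows, 0.242% rose and 46.8% had a fold change above zero. The list was written with earlier results of these data known. Cpt1a, which passes fatty acids into mitochondria, was at 53, 47.6, 45.3 and 29.8 CPM in controls and 83.8, 98.9, 91.97 and 72.7 CPM at day 2 (log2 fold change 0.96, SE 0.116, adjusted p = 0.0134). The groups did not overlap, and the call was lost without control replicate 2 (adjusted p = 0.056) or day 2 replicate 2 (0.104). Acaa2, a thiolase of β-oxidation, went from 29.9, 31.6, 21.8 and 25.3 CPM to 43.1, 49.5, 43.3 and 36.6 CPM (log2 fold change 0.64, SE 0.0986, adjusted p = 0.0382). Leaving out any library other than control replicate 4 took its adjusted p to between 0.0522 and 0.162. Plin2, which coats lipid droplets, went from 21.2, 22.2, 18.7 and 13.1 CPM to 32.05, 37.5, 30.5 and 23.7 CPM (log2 fold change 0.69, SE 0.113, adjusted p = 0.0431), and its call was lost in all 8 fits that left out a library.

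Rises among other metabolic genes were of like size. Gatm, the first enzyme of creatine synthesis, was at 50.1, 27.1, 51.4 and 37.6 CPM and 63.4, 95.1, 101 and 96.1 CPM (log2 fold change 1.05, SE 0.179, adjusted p = 0.0482). Naprt1, which makes NAD from nicotinic acid, was at 5.28, 6.82, 3.97 and 3.66 CPM and 10.3, 13.7, 11.7 and 9.97 CPM (log2 fold change 1.20, SE 0.188, adjusted p = 0.0382). Neither gene's groups overlapped. Aldh9a1, an enzyme of carnitine synthesis, rose by 0.66 (adjusted p = 0.0151) on the log2 scale and Slc25a5, an ADP/ATP carrier of the inner mitochondrial membrane, by 0.38 (adjusted p = 0.0439); for Slc25a5 the groups overlapped and the call was lost under the replicate block (adjusted p = 0.0655).

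Among β-cell genes the changes went both ways. Of 43 rows tested in the list of β-cell identity, glucose sensing and secretion, 4 fell (Slc2a2, Trpm5, Gad1 and Ttr) and Rgs4 rose, with a list median of -0.07. Over all rows, 0.135% fell and 0.242% rose, and the list was written with earlier results of these data known. Slc2a2, the glucose transporter GLUT2, was at 489, 497, 627 and 439 CPM in controls and 318, 342, 394 and 316 CPM at day 2, a fall of 1.53-fold (log2 fold change -0.62, SE 0.0925, adjusted p = 0.0334). The groups did not overlap, and the log2 fold change was near equal in both run labels (-0.61 and -0.62). Without any 1 of the libraries other than control replicate 4 its adjusted p was between 0.0523 and 0.172.

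Trpm5, a calcium-activated cation channel of β-cells and taste cells, was at 93.7, 105, 76.7 and 57.8 CPM in controls and 25.7, 36.3, 42.4 and 30.8 CPM at day 2, with no overlap (log2 fold change -1.31, SE 0.178, adjusted p = 0.0252). Gad1, which forms GABA, went from 198, 218, 200.3 and 168 CPM to 138, 129, 118 and 139 CPM, again with no overlap (log2 fold change -0.61, SE 0.0856, adjusted p = 0.0273). Ttr, transthyretin, which α-cells and β-cells make, fell from 609, 787, 484 and 464 CPM to 486, 296, 264 and 219.6 CPM (log2 fold change -0.94, SE 0.15, adjusted p = 0.0382); day 2 replicate 1 lay within the control range.

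**Figure D3:**
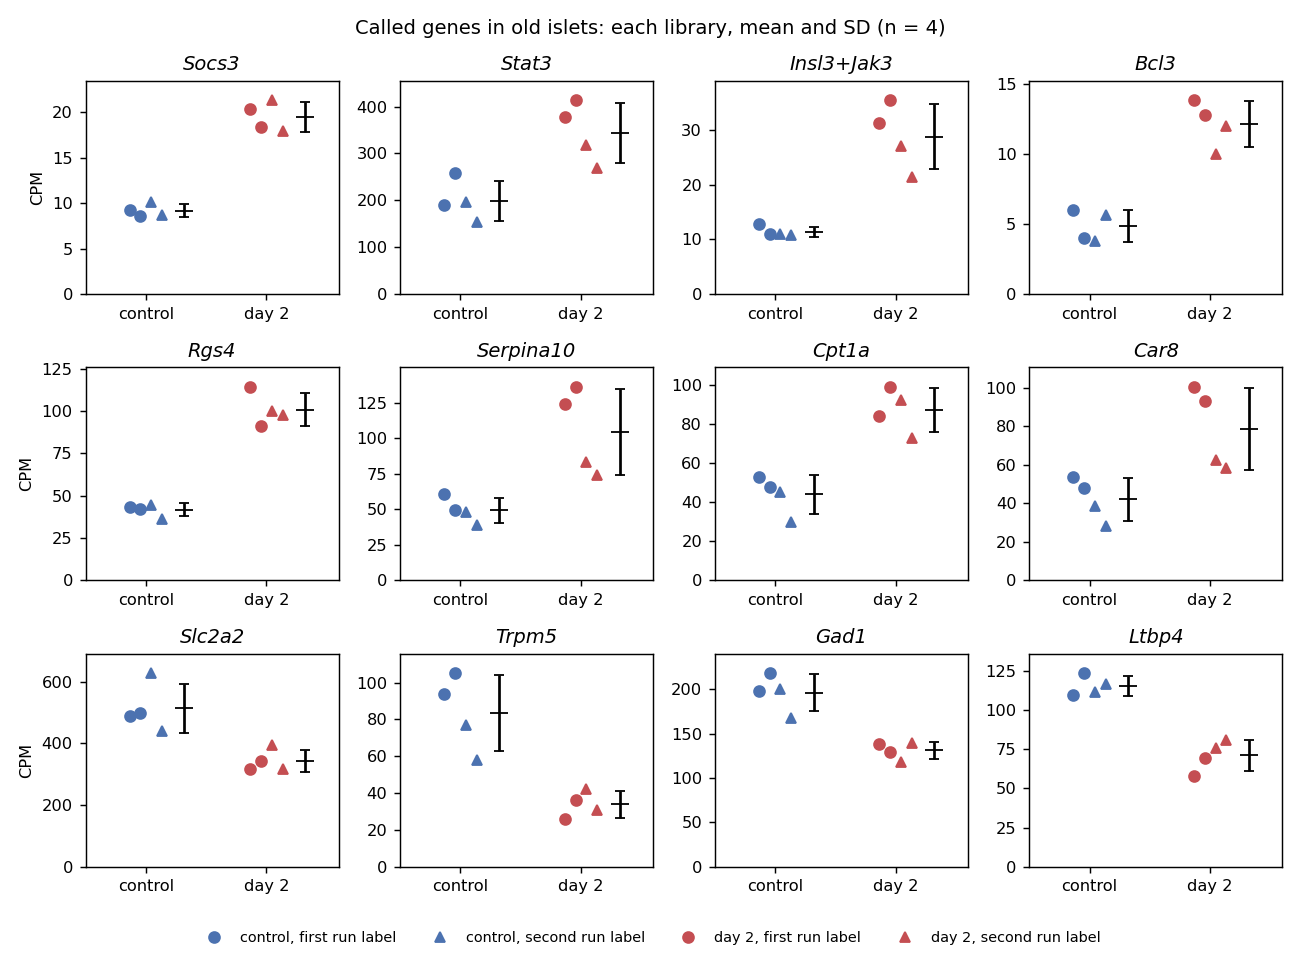
CPM of 12 called genes in each of the 8 old libraries (circles, first run label; triangles, second), with the mean and SD of each group in black. In all 12 panels the control and day 2 points do not overlap; 8 genes rose and the 4 in the bottom row fell.

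Hormone transcripts and most β-cell regulators were not called. Ins2 was at 115090.0, 110910.0, 115530.0 and 83871 CPM in controls and 72811, 73992, 88912 and 80827 CPM at day 2 (log2 fold change -0.46, SE 0.0966, adjusted p = 0.0992). All day 2 values lay below control replicates 1 to 3, and day 2 replicate 3 lay above control replicate 4. Ins1 gave -0.37 (adjusted p = 0.225), Gcg -1.21 (adjusted p = 0.0992), Sst -0.66 (adjusted p = 0.211) and Ppy 0.64 (adjusted p = 0.34) on the log2 scale. For Gcg, the glucagon gene of α-cells, the groups did not overlap but nearly touched, at 14405 to 26363 CPM and 4097 to 14313 CPM. The β-cell factor Mafa was at 60.98 to 82.6 CPM and 42.8 to 70.9 CPM (-0.39, adjusted p = 0.146) and Pdx1 at 24.2 to 36.6 CPM and 27.1 to 34.9 CPM (0.06, adjusted p = 0.851). The list of other endocrine cells had a median of -0.35, with Ttr its only call among 15, where 0.135% of all rows fell. The median of the genes that β-cells normally keep silent was -0.15 with 0 calls among 17 (Serpina7 was at 0.70, adjusted p = 0.146).

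The other genes that fell had varied roles. Upk3a, a uroplakin of urothelium that also marks mesothelium, had the largest fall among the called rows. It went from 6.26, 4.69, 3.18 and 2.84 CPM to 0.536, 0.787, 0.482 and 1.07 CPM (log2 fold change -2.53, SE 0.388, adjusted p = 0.036). Its fitted fold rests on few day 2 reads, since 1 count stood for 0.0881 to 0.113 CPM there before TMM. The call was kept in 2 of the 8 fits that left out a library. 2210019I11Rik, annotated as a processed transcript, went from 23.6, 19.3, 19.6 and 10.5 CPM to 6.11, 6.29, 7.16 and 5.68 CPM (log2 fold change -1.54, SE 0.202, adjusted p = 0.0216). Neither gene's groups overlapped. Dpp10, a partner of potassium channels, went from 14.4 to 24.7 CPM to 9.11 to 11.5 CPM (-1.06, adjusted p = 0.0428). The joined row of Acvr1c, the activin receptor ALK7, and Gm13544 changed by -0.81 (adjusted p = 0.0439) on the log2 scale, the receptor phosphatase Ptprd by -0.65 (adjusted p = 0.0203), the matrix glycoprotein tenascin-R (Tnr) by -0.53 (adjusted p = 0.0382), and the joined row of Baiap3, which acts in vesicle release, and Tsr3 by -0.52 (adjusted p = 0.0382).

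The matrix proteins Ltbp4 and Ctgf fell as well. Ltbp4, which stores latent TGF-β in the matrix, went from 109, 123, 111 and 116 CPM to 57.7, 69.5, 75.97 and 81.1 CPM, with no overlap (log2 fold change -0.74, SE 0.0994, adjusted p = 0.0239). It was the 1 called member of the 24 tested in the fibroblast and stellate list, where 0.135% of all rows fell. The list median was -0.34 (-0.72 and -0.19 in the run labels). Ctgf, a secreted matrix protein, fell by 1.51-fold (31.4 to 37.8 CPM in controls, 18.9 to 25.97 CPM at day 2; log2 fold change -0.60, SE 0.0965, adjusted p = 0.0402). Smaller falls were called for the histone demethylase Kdm2b (-0.51), Frmd4b (-0.47), Tbc1d22a (-0.42) and the joined row of 2010111I01Rik and Gm16907 (-0.38). The groups overlapped for Kdm2b and Tbc1d22a, and the call of Frmd4b was lost under the replicate block (adjusted p = 0.0625).

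Genes of cell division were not called. None of 43 S phase genes and none of 39 G2/M genes passed, with medians of -0.04 and -0.40. In S phase 20 of the 43 were above zero and in G2/M 5 of the 39, where 46.8% of all rows were. Mcm2, Mcm5 and Mcm6, subunits of the replicative helicase, gave 0.11 (adjusted p = 0.848), 0.10 (adjusted p = 0.936) and -0.04 (adjusted p = 0.928). Mcm2 was at 16.3, 15.8, 11.02 and 10.8 CPM in controls and 12.6, 12.9, 16.2 and 16.9 CPM at day 2. The replication clamp Pcna gave 0.15 (adjusted p = 0.584) and the division marker Mki67 -0.27 (adjusted p = 0.773). The G2/M median differed between run labels, at -0.73 in the first and 0.03 in the second, and Mki67 at -1.02 and 0.42. The members with the smallest p were the joined row of Ccne2 and Ints8 (0.17, adjusted p = 0.355) and Usp1 (0.17, adjusted p = 0.413) in S phase, and G2e3 (-0.40, adjusted p = 0.265) and the joined row of Ccna2 and Exosc9 (0.25, adjusted p = 0.32) in G2/M. Among 29 G1 cyclins, cyclin inhibitors and p53 targets the nearest were Trp53inp1 (-0.59, adjusted p = 0.0992) and Cdkn2c (-0.70, adjusted p = 0.307), with a median of -0.15.

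No protein folding gene of the endoplasmic reticulum (ER) was called. The chaperone Hspa5 was at 2635, 2892, 1961 and 1722 CPM in controls and 2667, 2681, 2104 and 2390.5 CPM at day 2 (log2 fold change 0.09, SE 0.0945, adjusted p = 0.744). Of 27 ER genes tested, 1 had an unadjusted p below 0.05, and 22 were above zero, where 46.8% of all rows were. The median was 0.04, and its sign differed between run labels, at -0.14 in the first and 0.22 in the second. The nearest were Ero1lb (-0.46, adjusted p = 0.213) and the joined row of Mir704 and Pdia4 (0.18, adjusted p = 0.434). In the PERK-ATF4 arm, which adapts translation to ER stress, 0 of 18 were called, with a median of 0.05 (-0.10 and 0.24 in the run labels). The nearest were Eif4ebp1 (0.50, adjusted p = 0.282) and Nupr1 (0.59, adjusted p = 0.42).

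No cytosolic heat shock gene was called. Of 20 tested, 17 were above zero, 10 had an unadjusted p below 0.05, and in 7 all day 2 libraries lay above all controls; over all rows tested, 46.8% were above zero, 11.5% had such a p and 2.35% had day 2 above. Their median was 0.32, with 0.31 and 0.15 in the run labels. Hsph1 was at 134, 100.1, 125 and 98.8 CPM in controls and 185, 258, 156 and 177 CPM at day 2 (log2 fold change 0.71, SE 0.14, adjusted p = 0.0835), and Hspa8 gave 0.47 (adjusted p = 0.097).

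No member passed in the lists of immediate early genes (24 tested, median 0.05; Dusp1 -0.45, adjusted p = 0.252 and Fos 0.52, adjusted p = 0.47), hypoxia and glycolysis (23 tested, median 0.09; the joined row of Eno1 and Gm5506 0.33, adjusted p = 0.115 and P4ha1 0.45, adjusted p = 0.14) or the circadian clock (18 tested, median -0.04; Nr1d1 -0.49, adjusted p = 0.142 and Cry1 0.40, adjusted p = 0.168).

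Markers of other cell types were read for the whole list. Ductal markers summed to 671 to 964 CPM in controls and 795 to 1028 CPM at day 2 (exact permutation test, p = 0.171), with 0 of 17 called and Tspan8 (0.60, adjusted p = 0.0704) and Krt7 (0.22, adjusted p = 0.314) nearest. Endothelial markers summed to 910.2 to 1242 and 831 to 1087 CPM (exact p = 0.314), with 0 of 19 called, 2 above zero, and Robo4 (-0.35, adjusted p = 0.289) and Kdr (-0.26, adjusted p = 0.298) nearest. Fibroblast and stellate markers summed to 467 to 827 and 408 to 938 CPM (exact p = 0.8). Neural, glial and mesothelial markers summed to 186 to 209.8 and 219 to 281 CPM (exact p = 0.0286, unadjusted over the marker lists), higher at day 2, while Upk3a in that list fell. In the leukocyte list the nearest were the joined row of Cd74 and Mir5107 (-0.45, adjusted p = 0.188) and C1qb (0.38, adjusted p = 0.217), and in the acinar list Dmbt1 (2.90, adjusted p = 0.319) and Klk1 (1.27, adjusted p = 0.597). The part of these shifts in the gene changes was not tested.

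**Figure D4:**
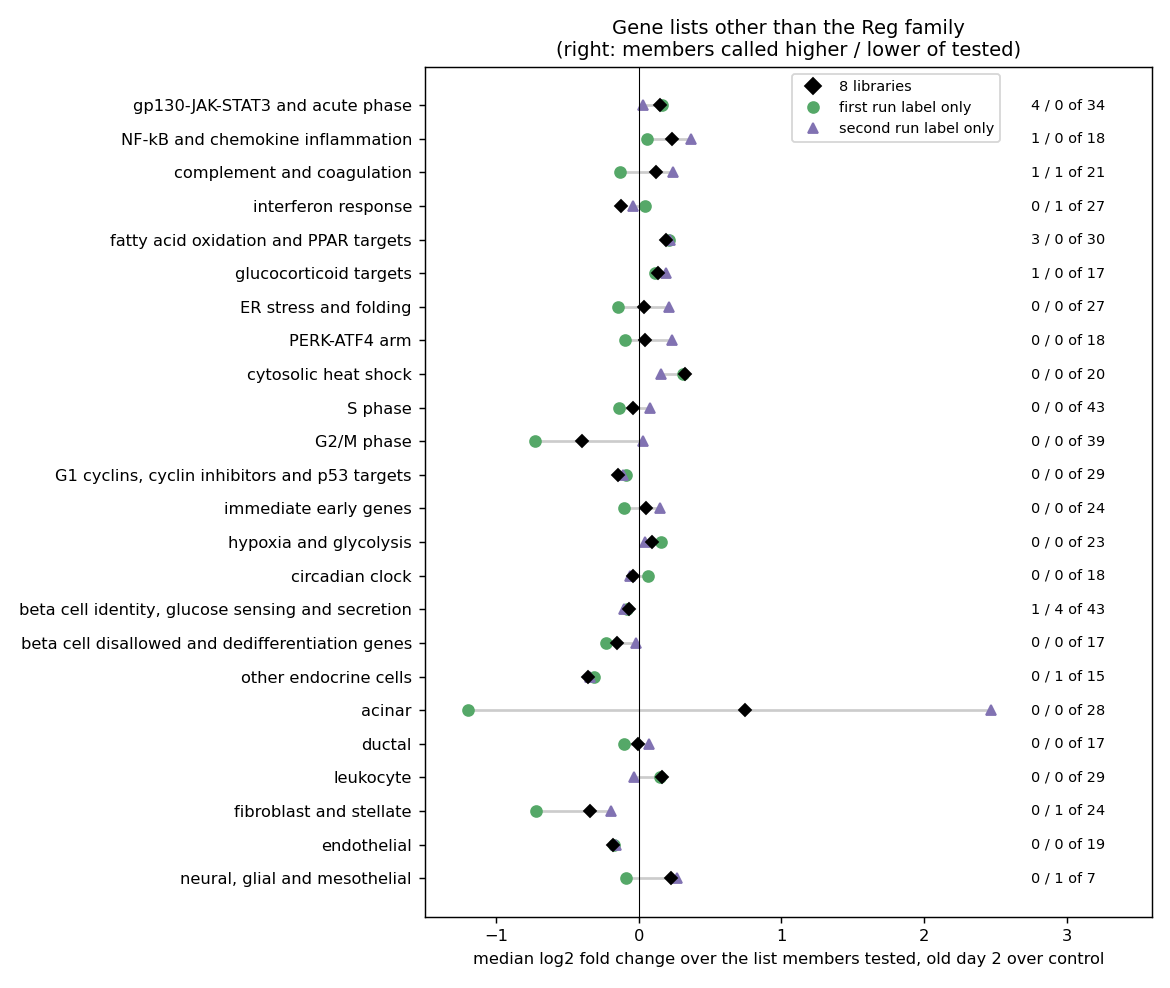
Median log2 fold change at day 2 over control for each gene list other than the Reg family, over all 8 libraries (diamonds) and within each run label (circles and triangles), with the members called higher and lower of those tested on the right. The acinar list runs from -1.20 in the first run label to 2.47 in the second, and the other lists stay within 1 of zero.

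Days 7 and 14 had 2 libraries each in old islets, all of the first run label, and share the control libraries, so their values are set beside those of day 2 without a test. Reg3b was at 108 and 12.5 CPM at day 7 and 0 and 0.249 CPM at day 14, Reg2 at 99.5 and 27.9 CPM, then 0.396 and 0.249 CPM, and Reg3g at 15.96 and 2.09 CPM, then 0.132 and 0.166 CPM. Socs3 was at 46.2 and 24.8 CPM at day 7 and 8.06 and 9.55 CPM at day 14. At day 7 both libraries lay above all day 2 libraries, and at day 14 both were near the control values of 8.53 to 10.1 CPM. Rgs4 was at 217 and 94.2 CPM, then 51.6 and 45.02 CPM, Stat3 at 448 and 405 CPM, then 221 and 233 CPM, and Cpt1a at 85.3 and 90.8 CPM, then 52.8 and 44.9 CPM. For Rgs4, day 7 replicate 1 was the highest of all old libraries. Slc2a2 was at 295 and 394 CPM at day 7 and 608 and 588 CPM at day 14, and Trpm5 at 54.03 and 67.01 CPM, then 87.8 and 92.1 CPM. At day 14 both genes were within their control ranges. Ctgf differed from these, at 15.96 and 7.49 CPM at day 7 and 15.98 and 28.5 CPM at day 14 against 31.4 to 37.8 CPM in controls.

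**Figure D5:**
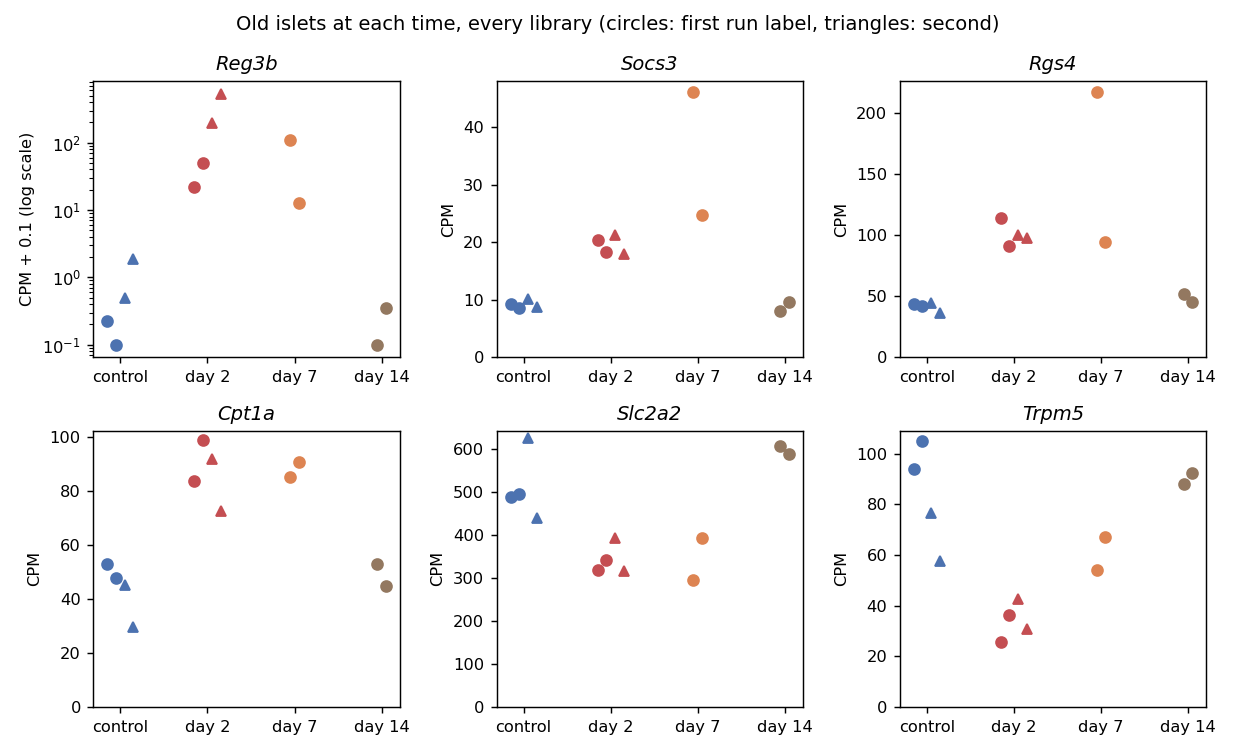
CPM of 6 genes in every old library at each time (circles, first run label; triangles, second; Reg3b on a log axis with 0.1 added). The 2 day 14 points lie at or near the control points in all 6 panels, whereas the day 7 points lie apart from the controls in all but Trpm5, where one of them is within the control range.

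Where the old response differed from that of young islets was tested as an interaction over 16 libraries, young minus old. All 8 young libraries carry the first run label, whereas the old ones are split between both, so age and run label are partly joined. Over the 16 libraries, 344 of 14705 rows passed (2.34%), with young minus old above zero in 1.12% and below zero in 1.22%. Among them were 20 of the 53 rows called in old islets. Of these 20, 18 had risen in old islets, and young minus old was below zero in 19, a direction that choosing genes by their old response favours. Within the first run label alone (12 libraries, a fit added after the data had been seen) 119 of 14546 rows passed (0.818%), among them 7 of the 20. Among the 20, Cpt1a differed by -1.52 (SE 0.211, adjusted p = 0.00443), Gatm by -1.38 (SE 0.276, adjusted p = 0.0162), Acaa2 by -1.03 (SE 0.19, adjusted p = 0.0126) and Glul by -0.87 (adjusted p = 0.0159) on the log2 scale. Within the first run label Cpt1a kept its call (-1.39, adjusted p = 0.0311), whereas Gatm (-1.33, 0.109), Acaa2 (-0.95, 0.079) and Glul (-0.89, 0.0642) did not. In young islets Cpt1a averaged 68.95 ± 10.9 CPM without PPTx and 46.97 ± 10.7 CPM at day 2 (± SD, n = 4). There the day 2 mean was below the control mean, whereas in old islets it was above.

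Of the Reg genes, Reg2 (-7.57, adjusted p = 0.0126), Reg3b (-6.14, adjusted p = 0.0143), Reg3d (-5.61, adjusted p = 0.0142) and Reg1 (-4.68, adjusted p = 0.0409) passed, and Reg3a (-3.51, adjusted p = 0.299) and Reg3g (-3.30, adjusted p = 0.465) did not. Within the first run label none of the 4 passed (adjusted p from 0.165 to 0.247), and over the 16 libraries Reg1 was called in 6 of the 16 fits that left out a library and not under the replicate block. Summed acinar markers ran over 47236 to 163510.0 CPM in young controls and 1391 to 13417 CPM in young day 2 islets, and Klk1 of that list had a difference of the same sign (-4.59, adjusted p = 0.0408); their part in the Reg differences was not tested. Klk1 and Insl3+Jak3 (-1.14, adjusted p = 0.0321) likewise passed in 6 of the 16 such fits, and neither passed within the first run label (adjusted p = 0.308 and 0.0846). For Socs3 (-0.40, adjusted p = 0.567), Stat3 (-0.12, adjusted p = 0.826), Bcl3 (-0.68, adjusted p = 0.395), Rgs4 (-0.30, adjusted p = 0.579), Slc2a2 (0.04, adjusted p = 0.928), Trpm5 (0.22, adjusted p = 0.754) and Ttr (-0.10, adjusted p = 0.847) no difference was detected. These 7 differences had standard errors of 0.16 to 0.38. Some genes of replication and folding that were not called in old islets differed in the other direction: Mcm2 by 1.90 (adjusted p = 0.0126), Mcm5 by 2.58 (adjusted p = 0.0159), Mcm6 by 1.75 (adjusted p = 0.00566), Pcna by 0.86 (adjusted p = 0.0162) and Hspa5 by 0.98 (adjusted p = 0.00603). Mki67 did not pass (1.71, adjusted p = 0.176). Mafa differed by 1.11 (adjusted p = 0.0109). Within the first run label Mcm2, Mcm5, Mcm6, Hspa5 and Mafa kept their calls and Pcna did not (adjusted p = 0.127).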

How the data were processed

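Islet RNA of 24 libraries was amplified from low input and sequenced as single reads. The file headers name TopHat on mm9 for alignment, and rpkmforgenes for counting unique reads over RefSeq genes. The deposited counts are whole, unnormalized numbers per row. The RPKM values, divided by the authors by length and reads in genes, entered 1 alternative only. The methods of the study name other tools (HISAT2, HTSeq, DESeq2) for its own lists, and strand use was not stated. Of 22197 rows, 1458 join overlapping genes and 441 share a name; their reads are uncertain.

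Counts of the 8 libraries were tested in edgeR 4.0.16 (R 4.3.3) with TMM, filterByExpr, run label as a term and Benjamini-Hochberg adjustment over all rows, at a threshold of 0.05. Named were a fixed set of Reg, STAT3, cell cycle, ER, hormone and β-cell genes, the 15 largest rises and falls called with a mean log2 CPM above 1, all other called rows, and list members called or, with none, the 2 of smallest p; some of these are not reported here. Members and lists were chosen with earlier results of these data known. Positions come from GENCODE (mm9), promoters from RefSeq (GRCm38.p6). Same-numbered control and day 2 libraries deviated together (r from 0.293 to 0.744), but so did differently numbered libraries of one run label (r from 0.248 to 0.501). With the mean of each run label taken out, same-numbered libraries gave r of -0.0175 in the first label and 0.422 in the second. With 2 libraries per group in each label, each r is a single value, so pairing by number beyond the label stays undecided. Replicates differed by more than sampling noise. In simulated counts (13794 genes), edgeR recovered 43.3% of 1.5-fold, 70.1% of 2-fold and 90.9% of 4-fold changes, with 8.72% false among 149 calls. Alternatives covered blocks, scaling, DESeq2 1.42.0, limma 3.58.1, filters, covariates, run labels and leaving out libraries; leaving out replicate 4 of both groups and the interaction within the first run label were chosen later, with the data in view.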

Additional observations from a re-analysis of the deposited data

Results flagged for a closer look

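The day 2 response of 32 named genes differed between ages (edgeR interaction of age and operation, 16 libraries, log2 scale). Young minus old, a difference between day 2 changes and not between levels, was below zero in 24 and above zero in 8. Of the 32, 20 were also called in old islets, and choosing genes by a rise there favours values below zero. Over all 14705 rows, 165 passed above zero and 179 below. Since all young libraries carry the first run label, the difference was also tested within it, where 13 of the 32 kept their call and 0 reversed. Young minus old was below zero for Reg1 (-4.68), Reg2 (-7.57), Reg3b (-6.14), Reg3d (-5.61), Klk1 (-4.59), Nupr1 (-2.41), Cpt1a (-1.52), Ang+Rnase4 (-1.48), Tacc2 (-1.40), Gatm (-1.38), Eif4ebp1 (-1.24), Car8 (-1.17), Insl3+Jak3 (-1.14), Enpp2 (-1.11), Serpina10 (-1.09), Acaa2 (-1.03), Cacnb3 (-0.92), Plin2 (-0.91), Ttc9 (-0.87), Glul (-0.87), Gad1 (-0.83), Fam159b (-0.68), Nfasc (-0.62) and Aldh9a1 (-0.56). For Gad1, which fell in old islets, such a value stands for a larger fall in young ones. It was above zero for Mcm5 (2.58), Mcm2 (1.90), Mcm6 (1.75), 2210019I11Rik (1.19), Mafa (1.11), Hspa5 (0.98), Mir704+Pdia4 (0.90) and Pcna (0.86).

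Of 248 groups of 4 libraries examined (library measures, list sums and named genes in the old control and day 2 groups), 11 held a library far from the other 3, where chance gives about 1 in 20. Among controls, replicate 4 had the highest summed G2/M level (713 CPM, next 534), the lowest Ins2 (83871 CPM, next 110910 CPM) and the lowest Nrtn (10.2 CPM, next 14.6). Control replicate 2 had the highest Gcg (26363 CPM, next 14901) and the highest sum of other endocrine markers (34157 CPM, next 21968), and control replicate 1 the highest Insl3+Jak3 (12.8 CPM, next 11.02). At day 2, replicate 3 had the highest total count (11349494, next 9195611). Replicate 4 had the lowest β-cell list sum (151310 CPM, next 164790 CPM) and the lowest Baiap3+Tsr3 (145 CPM, next 158), and replicate 1 the lowest Gatm (63.4 CPM, next 95.1) and Frmd4b (23.3 CPM, next 25.9).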

How the results depend on the processing

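None of the 53 called fold changes changed sign under any alternative. The replicate block in place of the run label gave 78 calls, 43 higher and 35 lower. No run label gave 3 calls (3 higher, 0 lower), DESeq2 with the run label 246 (137 and 109) and without it 105 (63 and 42), no filter beyond 1 count 127 (81 and 46), all 24 libraries in one fit 89 (58 and 31), the first run label only 32 (16 higher), the second 0 (0 and 0), limma-trend on log2(RPKM + 1) 24 (17 and 7), leaving out replicate 4 of both groups 107 (65 and 42), and a fold change of at least 2 gave 16 (12 and 4). The share of mapped reads in genes beside the run label gave 40 calls (22 higher and 18 lower), which included 30 of the 53. Leaving out 1 library gave 9 to 56 calls, 9 to 30 higher and 0 to 26 lower, fewest without day 2 replicate 2. For the interaction, no run label gave 105, DESeq2 749, no filter 229, the replicate block 432, the first run label only 119, and leaving out 1 library 121 to 430, fewest without old control replicate 2.

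The fold changes that reversed belonged to 7 genes, none of them called. With the first run label only, Hspa5 was at -0.077, Mcm2 at -0.36, Mcm5 at -0.67 and Klk1 at -0.75; with the second only, Mcm6 was at 0.20, Mki67 at 0.42 and Pdx1 at -0.13. Without replicate 4 of both groups, Hspa5 was at -0.025, Mcm2 at -0.049 and Mcm5 at -0.19. Leaving out 1 library gave Hspa5 -0.0030 to 0.149, Mcm2 -0.015 to 0.217, Mcm5 -0.277 to 0.324 and Mcm6 -0.0961 to 0.0852. The cause of these shifts was not tested. At this depth and number of libraries, a gene that was not called may still differ.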
